A study of Mus musculus with 8 samples.

Results

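Matriptase, prostasin and their Kunitz-type inhibitors were followed at the transcript level in 4T1 cells carrying a control hairpin or a hairpin against a kinase of the MEK5-ERK5 cascade. The set comprised 4 genes, picked by name and matched by Entrez Gene number, out of 24454 genes listed. They were St14 (matriptase), Prss8 (prostasin), Spint1 (HAI-1) and Spint2 (HAI-2), and all 4 were measured in every library. 4T1 is an established line from a mammary tumour of the mouse, labelled as breast cancer cells. All cells had been infected with lentivirus encoding a short hairpin RNA and selected with puromycin. A non-targeting hairpin (shCTRL) was sequenced in 3 libraries, a hairpin against murine MEK5 (shMEK5, hairpin 2 in the titles) in 2, and a hairpin against murine ERK5 (shERK5, hairpin 1 in the titles) in 3. Each target was thus represented by 1 hairpin, and effects of the hairpin other than on its target cannot be told apart from the knockdown. The extraction protocol speaks of 3 replicates for each of 3 lines, whereas the design text and the samples give 2 for shMEK5.

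Matriptase is a type II transmembrane serine protease and prostasin is a serine protease tethered to the membrane by a lipid anchor. In epithelia the pair forms a proteolytic module at the cell surface, in which each can act on the zymogen of the other. HAI-1 and HAI-2 are membrane proteins whose Kunitz domains bind and block both proteases, and loss of this restraint is known to disturb epithelial integrity. Known or proposed substrates of the module include the hepatocyte growth factor precursor, pro-urokinase, a protease-activated receptor, EpCAM and subunits of the epithelial sodium channel.

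Values are CPM, the reads counted for a gene scaled to 1000000 counted reads per library. Depth ranged from 41397315 to 53714288 assigned reads per library. The MEK5 gene Map2k5 had 14.1 and 14.4 CPM in shMEK5 against 35.2 to 37.1 CPM in the other libraries. The ERK5 gene Mapk7 had 6.33 to 6.66 CPM in shERK5 and 25.6 to 28.6 CPM in shCTRL. Mapk7 was also lower in shMEK5, at 20.4 and 18.7 CPM (log2 difference -0.44, SE 0.08, limma adjusted p = 0.000923). In the check of the labelled cell type, 9 of 10 epithelial markers passed the expression filter, and the basal keratin gene Krt5 had 0 reads in every library. Of the 9, Krt14 passed through the shMEK5 libraries alone, and Cldn7 was low, between 0.604 and 1.22 CPM. The 7 leukocyte markers summed to between 0.0576 and 0.193 CPM and the 5 endothelial markers to between 0.0702 and 0.387 CPM. Of the 7 fibroblast markers, Dcn, Lum and Thy1 had 0 reads throughout, whereas Pdgfra lay between 22.5 and 46.3 CPM. The fibroblast markers summed to between 31.6 and 47.3 CPM in shCTRL, 34.4 and 35.9 CPM in shMEK5, and 22.9 and 28.2 CPM in shERK5. Nearly all of this sum was the single gene Pdgfra. Against shCTRL, Pdgfra was called lower in shERK5 (log2 difference -0.48, SE 0.14, limma adjusted p = 0.018) and not called in shMEK5 (-0.06, SE 0.16, limma adjusted p = 0.762). The part of the fibroblast markers in the results was not tested. Whether replicates came from separate cultures is not stated in the labels, and p-values therefore reflect the spread among these libraries alone, which may be technical.

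Read against shCTRL, the proteases and inhibitors did not move as a block. In shMEK5, St14 rose, Spint1 fell, and Prss8 and Spint2 did not pass the test. In shERK5, St14 and Prss8 rose, Spint1 fell slightly, and Spint2 did not pass the test. Thus 2 of the 4 genes were called in shMEK5, where 48.7% of the 11623 genes tested were called, 23.1% as higher and 25.6% as lower. In shERK5, 3 of the 4 were called, where 63.3% of all tested genes were called, 32.0% as higher and 31.3% as lower. Between the knockdowns 3 of the 4 were called, all as higher in shERK5, where 39.4% of all tested genes were called, 22.0% as higher and 17.4% as lower. The same genes were those whose libraries did not overlap between groups, a property shared by 68.7% of all tested genes for shMEK5 against shCTRL and 67.9% for shERK5 against shCTRL. For shERK5 against shMEK5 that share was 61.0%. The counts against shCTRL are near these backgrounds, that between the knockdowns is above its background, and with 4 genes no result on the group is read from them. Both knockdowns were compared with the same 3 shCTRL libraries.

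**Figure D1:**
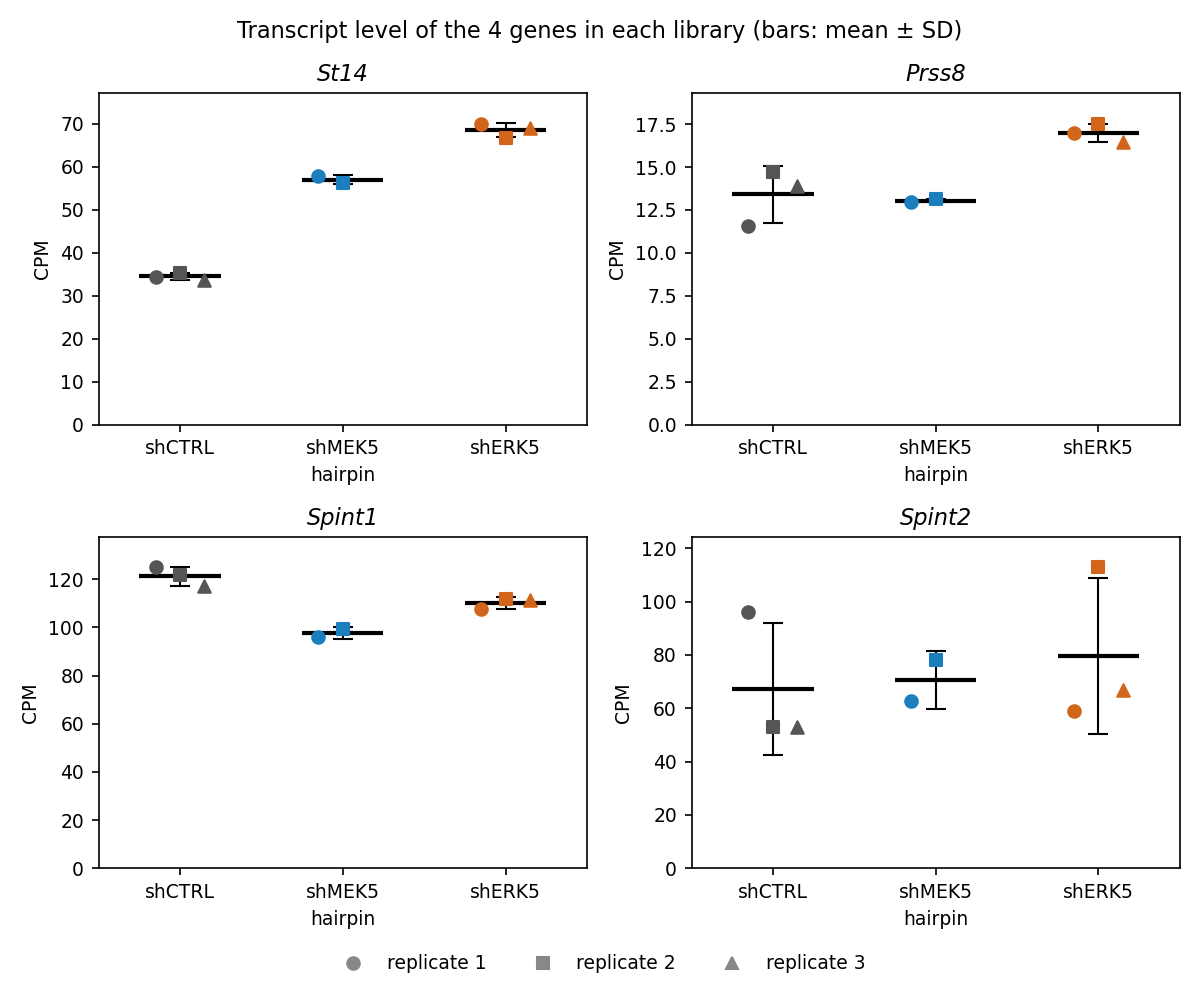
CPM (y axis, from 0) of St14, Prss8, Spint1 and Spint2 in each of the 8 libraries, by hairpin (x axis), with the mean as a line and the SD as a bar; symbols mark the replicate number. St14 lies between 33.8 and 35.3 CPM in shCTRL and between 66.8 and 70.1 CPM in shERK5, whereas Spint2 spans 52.9 to 95.95 CPM within shCTRL alone.

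St14 was higher in both knockdowns, and to a greater extent in shERK5. The gene (Entrez Gene 19143) lies on chromosome 9, from 31088590 to 31131811 (RefSeq, GRCm38). Its level in the shCTRL libraries was 34.5, 35.3 and 33.8 CPM. In the shMEK5 libraries it was 57.8 and 56.3 CPM, and in the shERK5 libraries it was 70.1, 66.8 and 69.1 CPM. The 3 groups did not overlap, and the order shCTRL, shMEK5, shERK5 held for every library.

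The mean of St14 rose from 34.5 ± 0.795 CPM (SD, n = 3) in shCTRL to 57.0 ± 1.09 CPM (SD, n = 2) in shMEK5, which is 1.65-fold. It reached 68.6 ± 1.70 CPM (SD, n = 3) in shERK5, which is 1.99-fold. On the log2(CPM + 1) scale the fitted difference from shCTRL was 0.71 (SE 0.05, limma adjusted p = 3.78e-06) in shMEK5 and 0.97 (SE 0.05, limma adjusted p = 1.79e-07) in shERK5. The knockdowns also differed from each other, by 0.26 (SE 0.05, limma adjusted p = 0.00267), with shERK5 the higher. Among the 4 genes St14 had the smallest spread within groups, with a within-group SD of 0.03 on the log2(CPM + 1) scale against a median of 0.08 over all 11623 genes tested. In the GENCODE annotation, the only gene overlapping St14 is Gm16071, a processed pseudogene on the opposite strand that shares 0 exonic bases with it.

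Epithelial markers are set beside St14. Of the 9 tested, 4 were called higher and 2 lower in shMEK5, where 48.7% of all tested genes were called. In shERK5 the counts were 5 and 2, where 63.3% were called. The 4 include Krt14, named after its values were seen, which passed the filter through shMEK5 alone (1.79 ± 0.0636 CPM, SD, n = 2, against 0.343 ± 0.111 CPM in shCTRL, SD, n = 3) and so had to differ. The median log2 fold changes of the 9 were 0.10 and 0.75, against -0.02 and 0.00 for all tested genes. The summed level of the 10 markers was 1832 to 2017 CPM in shCTRL, 1410 to 1476 CPM in shMEK5 and 1870 to 1916 CPM in shERK5. Most of this sum was Krt8 and Krt18 (means of 549.3 and 1111 CPM in shCTRL), the 2 called lower in both knockdowns. In shERK5 they stood at 69.7% of their shCTRL means. The 5 called higher there stood at 169.1% (Krt7), 206% (Krt19), 215.6% (Epcam), 299.9% (Cdh1) and 413.8% (Cldn4), so the sum hides opposite changes. The part of the markers in the change of St14 was not tested. In bulk RNA, a changed share of cells expressing a gene and a changed amount per cell cannot be told apart.

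Prss8 was higher in shERK5 than in either other group, while its level in shMEK5 lay inside the range of shCTRL. The gene (Entrez Gene 76560) lies on chromosome 7, from 127925717 to 127930149 (RefSeq, GRCm38). The shCTRL libraries held 11.6, 14.7 and 13.9 CPM and the shMEK5 libraries 13.0 and 13.1 CPM. The shERK5 libraries held 17.0, 17.5 and 16.5 CPM, all above the highest value of the other groups.

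The mean of Prss8 was 13.4 ± 1.64 CPM (SD, n = 3) in shCTRL, 13.05 ± 0.109 CPM (SD, n = 2) in shMEK5 and 17.0 ± 0.531 CPM (SD, n = 3) in shERK5, the last being 1.27-fold of the control. The fitted log2 difference of shERK5 from shCTRL was 0.33 (SE 0.08, limma adjusted p = 0.00592). For shMEK5 it was -0.03 (SE 0.09, limma adjusted p = 0.817), with a 95% interval from -0.24 to 0.18, so a change within that range is not excluded. Between the knockdowns Prss8 was higher in shERK5 by 0.36 (SE 0.09, limma adjusted p = 0.0119). That last call was lost without shMEK5 replicate 1 (0.35, limma adjusted p = 0.0697) and without shMEK5 replicate 2 (0.36, limma adjusted p = 0.0544). Prss8 rested on 537 to 933 reads per library, which gives a counting error of 3.27% to 4.32%, the highest of the 4 genes.

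The end of Prss8 overlaps that of Kat8, a histone acetyltransferase gene on the opposite strand, by 122 bases, all of them exonic in both genes, and the sources used here do not give whether strand was used in counting. Kat8 had a mean of 25.6 ± 0.0746 CPM (SD, n = 3) in shCTRL, 27.4 ± 0.949 CPM (SD, n = 2) in shMEK5 and 35.1 ± 1.5 CPM (SD, n = 3) in shERK5. Like Prss8 it was higher in shERK5 (log2 difference 0.44, SE 0.05, limma adjusted p = 5.83e-05), and its part in the Prss8 value was not tested.

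The windows before the start sites of Spint1 and Spint2, the inhibitors described next, are shown. Each holds the 250 bases before the start site that the RefSeq table gives in GRCm38.p6, which for Spint2 lies inside the gene's annotated span, written 5′ to 3′ on the gene's strand, chr2:119237110-119237359 (plus strand) for Spint1 and chr7:29281978-29282227 (minus strand) for Spint2. Capitals mark matches, on either strand, to the E-box CACCTG, read as CAGGTG on the other strand, and to CACCC, a core bound by Krüppel-like factors, read as GGGTG. These genes are shown because RefSeq promoter windows were matched for only these 2 of the 4 genes.
Spint1: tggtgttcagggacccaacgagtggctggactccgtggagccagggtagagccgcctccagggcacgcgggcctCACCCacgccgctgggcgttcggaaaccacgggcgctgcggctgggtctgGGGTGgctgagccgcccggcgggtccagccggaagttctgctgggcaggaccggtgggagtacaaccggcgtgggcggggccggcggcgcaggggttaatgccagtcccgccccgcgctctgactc
Spint2: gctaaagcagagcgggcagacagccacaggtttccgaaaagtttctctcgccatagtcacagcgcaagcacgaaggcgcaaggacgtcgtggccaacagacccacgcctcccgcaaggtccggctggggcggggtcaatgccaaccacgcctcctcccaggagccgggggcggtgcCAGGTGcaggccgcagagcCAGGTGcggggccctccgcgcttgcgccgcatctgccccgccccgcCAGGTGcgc
The Spint2 window held 3 E-box matches, beginning 74, 55 and 9 bases before the start, and 0 matches to CACCC. Spint1 held 2 matches to CACCC, beginning 176 and 126 bases before the start, and 0 E-box matches. Among 32851 RefSeq windows of that length 17.2% held the E-box letters and 52.0% the letters CACCC. Both windows held 0 matches to AACCNGTT, a Grainyhead-like motif found in 1.79% of windows, and to TGANTCA, an AP-1 motif found in 6.75%. GC content was 72.8% for Spint1 and 69.6% for Spint2. A match describes the letters of the window only.

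Spint1 was highest in shCTRL, lowest in shMEK5 and intermediate in shERK5. The gene (Entrez Gene 20732) lies on chromosome 2, from 119237360 to 119249535 (RefSeq, GRCm38), and no other annotated gene overlaps it. The shCTRL libraries held 125.0, 121.8 and 117.1 CPM. The shMEK5 libraries held 96.0 and 99.4 CPM and the shERK5 libraries 107.5, 112.0 and 111.5 CPM. The groups did not overlap, and the order shMEK5, shERK5, shCTRL is not that of St14.

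Spint1 fell to 97.7 ± 2.37 CPM (SD, n = 2) in shMEK5 from 121.3 ± 3.95 CPM (SD, n = 3) in shCTRL, which is 80.5% of the control. In shERK5 it stood at 110.3 ± 2.46 CPM (SD, n = 3), 90.9% of the control. The fitted log2 difference from shCTRL was -0.31 (SE 0.05, limma adjusted p = 0.000623) in shMEK5 and -0.14 (SE 0.05, limma adjusted p = 0.0222) in shERK5, and shERK5 exceeded shMEK5 by 0.17 (SE 0.05, limma adjusted p = 0.0193). The fall in shERK5 was small and close to the threshold. Its limma adjusted p was 0.0623 without shCTRL replicate 1, 0.0562 without shCTRL replicate 2, 0.0668 without shERK5 replicate 1 and 0.0511 without shERK5 replicate 3. The difference between the knockdowns was likewise lost without shMEK5 replicate 1 (limma adjusted p = 0.142), shMEK5 replicate 2 (0.0538), shERK5 replicate 2 (0.0557) or shERK5 replicate 3 (0.0655). The fall in shMEK5 was called under all 19 alternatives tried.

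**Figure D2:**
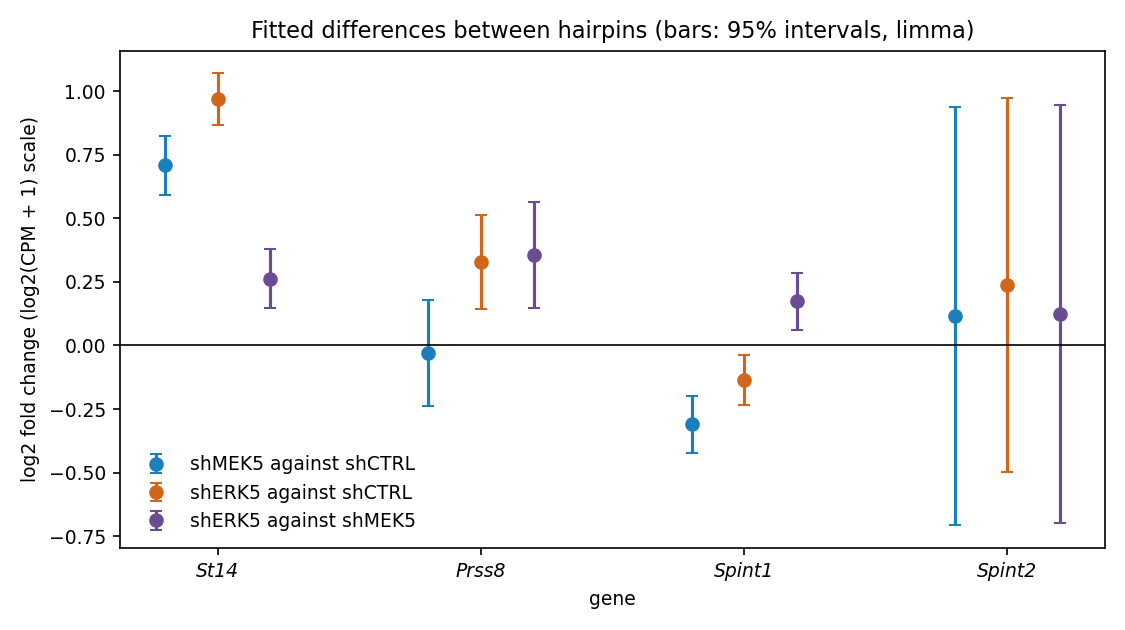
Fitted log2 fold change on the log2(CPM + 1) scale (y axis) of the 4 genes (x axis) in the 3 comparisons, with 95% intervals as bars. The St14 intervals lie above 0 in all 3 comparisons and the Spint1 intervals lie below 0 against shCTRL, while each Spint2 interval spans 0 widely, from -0.71 to 0.94 in shMEK5 and from -0.50 to 0.97 in shERK5.

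Spint2 showed no difference between groups beyond its spread, because libraries of the same group differed by up to 1.91-fold. The gene (Entrez Gene 20733) lies on chromosome 7, from 29256330 to 29282059 (RefSeq, GRCm38), and no other annotated gene overlaps it. The shCTRL libraries held 95.95, 53.1 and 52.9 CPM, the shMEK5 libraries 62.8 and 78.2 CPM, and the shERK5 libraries 58.98, 112.9 and 66.98 CPM. In shCTRL, replicate 1 stood above replicates 2 and 3, in shERK5 replicate 2 stood above replicates 1 and 3, and all 3 groups overlapped.

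The means of Spint2 were 67.3 ± 24.8 CPM (SD, n = 3) in shCTRL, 70.5 ± 10.9 CPM (SD, n = 2) in shMEK5 and 79.6 ± 29.1 CPM (SD, n = 3) in shERK5. The log2 difference from shCTRL was 0.11 (SE 0.35, limma adjusted p = 0.809) in shMEK5 and 0.24 (SE 0.31, limma adjusted p = 0.53) in shERK5, and that between the knockdowns was 0.12 (SE 0.35, limma adjusted p = 0.81). The sign of these values turned when single libraries were left out. Without shERK5 replicate 2 the difference of shERK5 from shCTRL was -0.04, and without shCTRL replicate 1 it was 0.52 (limma adjusted p = 0.148). An interval from -0.50 to 0.97 for shERK5 leaves room for a change about as large as that of St14, so these libraries do not show that Spint2 stayed level.

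The spread of Spint2 was far above that of counting. It rested on 2271 to 6011 reads per library, a counting error of 1.29% to 2.10%. Its within-group SD was 0.45 on the log2(CPM + 1) scale, the 16th highest of the 11623 genes tested, so that 99.9% of these genes had a smaller one. The corresponding SD was 0.04 for Spint1 and 0.11 for Prss8. A spread of this kind was thus present in 1 of the 4 genes, in the same libraries in which St14 and Spint1 agreed to within 1.07-fold inside each group.

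The genes with profiles most like that of each member are given as a description. A profile here is log2(CPM + 1) minus the mean of the shCTRL libraries, and likeness is the root-mean-square difference of 2 profiles over the 8 libraries, among 9786 genes with a mean of at least 5 CPM. Nearest to Spint2 were Alg5 (0.11), a glucosyltransferase gene of N-glycan assembly, Ahcyl1 (0.15) and Slc35e3 (0.15). Ahcyl1 stood at 105.0, 65.8 and 68.3 CPM in the shCTRL libraries, 87.8 and 104.8 CPM in the shMEK5 libraries and 81.9, 136.8 and 91.7 CPM in the shERK5 libraries. These genes were picked for likeness over the same 8 libraries, so that shCTRL replicate 1 and shERK5 replicate 2 are the highest of their groups in them follows from the choice. Over all genes, library pairs of one group differed beyond counting noise, the chi-square statistic divided by its degrees of freedom being 7.45 to 37.4, the highest between shERK5 replicates 1 and 2.

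**Figure D3:**
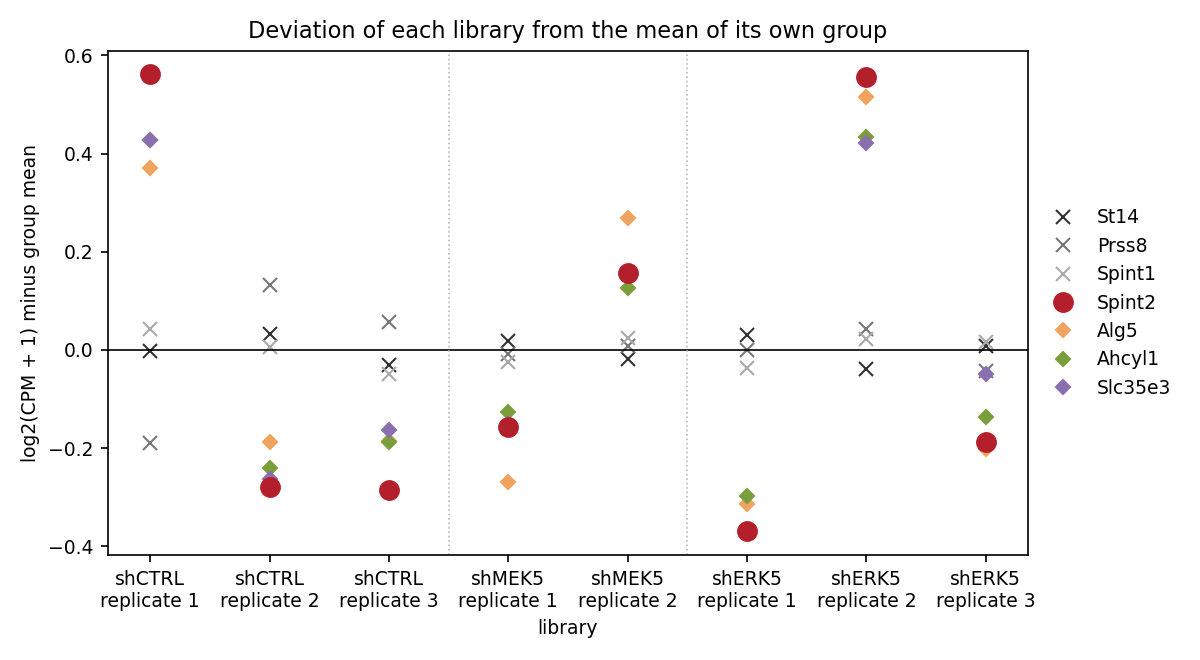
Deviation of each library (x axis, the 8 libraries by group) from the mean of its own group on the log2(CPM + 1) scale (y axis), for Spint2 (large circles), the 3 genes with the most similar profiles (diamonds) and the other 3 genes of the set (crosses). Spint2 reaches 0.56 in shCTRL replicate 1 and in shERK5 replicate 2, while St14 and Spint1 stay within 0.05 of their group means.

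For the other 3 members the nearest profiles were chosen in the same way. Nearest to St14 were the potassium channel gene Kcnk1 (0.05), the GTPase gene Rem2 (0.06) and the profilin gene Pfn2 (0.07). Kcnk1 went from a mean of 34.6 CPM in shCTRL to 60.7 CPM in shMEK5 and 69.1 CPM in shERK5, nearly the levels of St14 itself. Nearest to Prss8 were Ccdc142 (0.06), Smim4 (0.06) and Mfsd3 (0.06), and nearest to Spint1 were the proteasome subunit gene Psmd1 (0.02), Kifbp (0.03) and the telomere-protein gene Pot1a (0.03).

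Levels can be compared between genes per length of transcript, taken here from the GENCODE transcript matched to the RefSeq mRNA. In shCTRL, Spint1 stood at 53.4 ± 1.74 CPM per kilobase and Spint2 at 48.7 ± 17.9 CPM per kilobase (SD, n = 3 each), which overlapped. St14 followed at 10.6 ± 0.244 and Prss8 at 7.24 ± 0.884 CPM per kilobase (SD, n = 3 each), without overlap. In shERK5 the order of the proteases was the same, with St14 at 21.1 ± 0.520 and Prss8 at 9.18 ± 0.287 CPM per kilobase (SD, n = 3 each). The order of the proteases and the overlap of the inhibitors depended on the length used. Over the union of all annotated exons St14 stood at 4.52 and Prss8 at 7.24 CPM per kilobase in shCTRL. By that length Spint1 stood at 43.8 ± 1.43 and Spint2 at 14.8 ± 5.44 CPM per kilobase there (SD, n = 3 each), without overlap.

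The balance of protease to inhibitor transcript within a library was compared as a log2 ratio of CPM, in which gene length cancels between groups. St14 moved towards Spint1 in both knockdowns. The CPM ratio of St14 to Spint1 was 0.276, 0.290 and 0.288 in the shCTRL libraries, 0.602 and 0.566 in the shMEK5 libraries, and 0.652, 0.597 and 0.620 in the shERK5 libraries. The shCTRL libraries lay apart from all others, whereas shMEK5 and shERK5 overlapped. The mean log2 ratio exceeded that of shCTRL by 1.04 in shMEK5 and by 1.13 in shERK5, against within-group SDs between 0.04 and 0.06. The two-sided exact permutation test gave p = 0.2 for shMEK5 and p = 0.1 for shERK5, the smallest these group sizes allow, and 0.4 for both after adjustment over the 12 ratio comparisons.

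The ratio of Prss8 to Spint1 was 0.0925, 0.121 and 0.119 in shCTRL, 0.135 and 0.132 in shMEK5, and 0.158, 0.157 and 0.148 in shERK5, with no overlap between any of the groups. Its mean log2 ratio exceeded that of shCTRL by 0.28 in shMEK5 and by 0.49 in shERK5 (exact permutation p = 0.2 and p = 0.1, adjusted 0.4 for both). With single libraries left out, the difference ranged from 0.1567 to 0.3489 in shMEK5 and from 0.3625 to 0.5547 in shERK5. Prss8 itself was not called in shMEK5, where Spint1 fell. The ratios to Spint2 spread more within groups. St14 to Spint2 ranged from 0.359 to 0.665 in shCTRL, from 0.720 to 0.921 in shMEK5 and from 0.591 to 1.19 in shERK5. Thus shCTRL overlapped shERK5 but not shMEK5. The mean log2 difference of shERK5 from shCTRL was 0.75 (exact permutation p = 0.3, adjusted p = 0.514). It was 0.46 without shCTRL replicate 1 and 1.05 without shERK5 replicate 2. For shMEK5 the difference was 0.61 (exact permutation p = 0.2, the smallest possible, adjusted p = 0.4), and 0.32 without shCTRL replicate 1. Prss8 to Spint2 overlapped between all groups, at 0.121 to 0.277 in shCTRL, 0.168 to 0.207 in shMEK5 and 0.155 to 0.288 in shERK5.

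**Figure D4:**
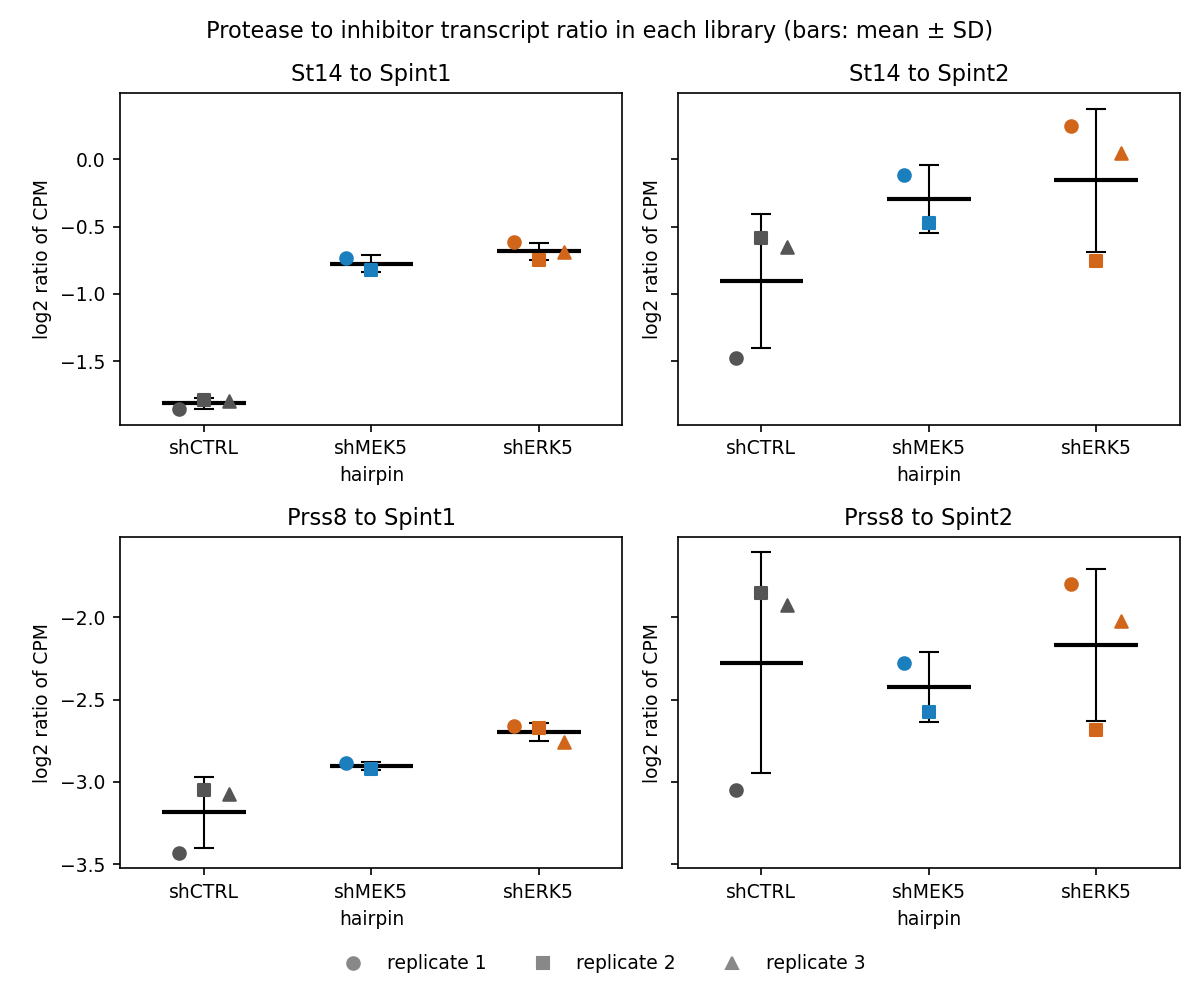
Log2 ratio of protease CPM to inhibitor CPM (y axis) in each library by hairpin (x axis), with mean and SD, for the 4 protease and inhibitor pairs. For St14 to Spint1 the shCTRL libraries lie between -1.86 and -1.79 and all knockdown libraries between -0.82 and -0.62, while the ratios to Spint2 spread widely within shCTRL and shERK5.

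Other genes of the module were read from a list of 59 related proteases, substrates and inhibitors, of which 58 were listed in the files, 16 passed the expression filter and 20 had 0 reads in every library. A count of 0 allows up to 0.0559 to 0.0725 CPM per library, for counting error only. Of the 16 tested genes, 5 were called higher and 4 lower in shMEK5, close to the 48.7% of all tested genes called there, and their median log2 fold change was 0.07, against -0.02 for all tested genes. For shERK5 the numbers were 7 higher and 3 lower, close to the 63.3% of all tested genes called, and the median was 0.13, against 0.00 for all tested genes. Genes that passed the filter only through the group in which they were high had to differ, so these counts are descriptive.

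Among the other type II transmembrane serine proteases, 2 of 15 passed the filter. Tmprss11e, a relative of matriptase found in squamous epithelia, rose in shERK5 by 0.66 (SE 0.15, limma adjusted p = 0.00485), its shCTRL mean being 18.7 ± 2.38 CPM (SD, n = 3) and its shERK5 mean 30.5 ± 7.16 CPM (SD, n = 3). In shMEK5 it was at 18.5 ± 0.642 CPM (SD, n = 2). Tmprss11f, named after its values were seen, was low, and passed the filter through the shMEK5 libraries alone, at 2.56 ± 0.339 CPM (SD, n = 2) against 0.339 ± 0.0837 CPM in shCTRL (SD, n = 3). Tmprss2, Tmprss3, Tmprss13 and 3 others had 0 reads throughout, and hepsin (Hpn) did not exceed 0.0751 CPM. Of 7 other membrane-anchored tryptase-like proteases 0 passed the filter.

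Of 18 listed substrates and downstream receptors, 10 were tested. For shMEK5, 4 were called higher and 1 lower, against 23.1% and 25.6% of all tested genes, and the 4 include Egfr, which passed the filter through shMEK5 alone. For shERK5 it was 5 higher and 2 lower, against 32.0% and 31.3% of all tested genes. Plau, which encodes pro-urokinase, rose from 242.4 ± 7.90 CPM (SD, n = 3) in shCTRL to 389.7 ± 15.3 CPM (SD, n = 2) in shMEK5 and 515 ± 30.2 CPM (SD, n = 3) in shERK5. Cdcp1, a transmembrane glycoprotein gene, rose by 0.36 (SE 0.06) in shMEK5 and 0.79 (SE 0.05) in shERK5, with limma adjusted p-values of 0.000578 and 8.10e-07. Met, the hepatocyte growth factor receptor gene, rose by 0.25 (SE 0.05) and 0.33 (SE 0.05), with limma adjusted p-values of 0.00318 and 0.00015. The ligand gene Hgf had 0 reads in every library.

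Epcam, whose product matriptase can cleave, rose in shERK5 by 1.06 (SE 0.09, limma adjusted p = 3.45e-06), its shCTRL mean being 13.2 ± 1.44 CPM (SD, n = 3) and its shERK5 mean 28.4 ± 2.04 CPM (SD, n = 3). Mst1, the gene of a growth factor related to the Met ligand, rose in shERK5 by 0.69 (SE 0.09, limma adjusted p = 7.43e-05). In shMEK5 the difference was 0.10 (SE 0.10, limma adjusted p = 0.401) for Epcam and 0.07 (SE 0.10, limma adjusted p = 0.588) for Mst1. F2rl1, a protease-activated receptor gene, fell in shERK5 by 0.34 on the log2 scale (SE 0.06, limma adjusted p = 0.000428), its means being 72.6 ± 4.21 CPM (SD, n = 3) in shCTRL and 57.1 ± 2.91 CPM (SD, n = 3) there, and had a difference of -0.02 (SE 0.06, limma adjusted p = 0.769) in shMEK5. Mmp3, the stromelysin gene, fell in both (limma adjusted p = 5.1e-06 and 5.54e-07), to 23.2% of its shCTRL mean in shMEK5 and 18.1% in shERK5. Egfr, named after its values were seen, passed the filter through shMEK5 alone, at 2.30 ± 0.141 CPM (SD, n = 2) against 0.782 ± 0.0871 CPM in shCTRL (SD, n = 3). The sodium channel subunit gene Scnn1a did not exceed 0.304 CPM, and Scnn1b had 0 reads.

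**Figure D5:**
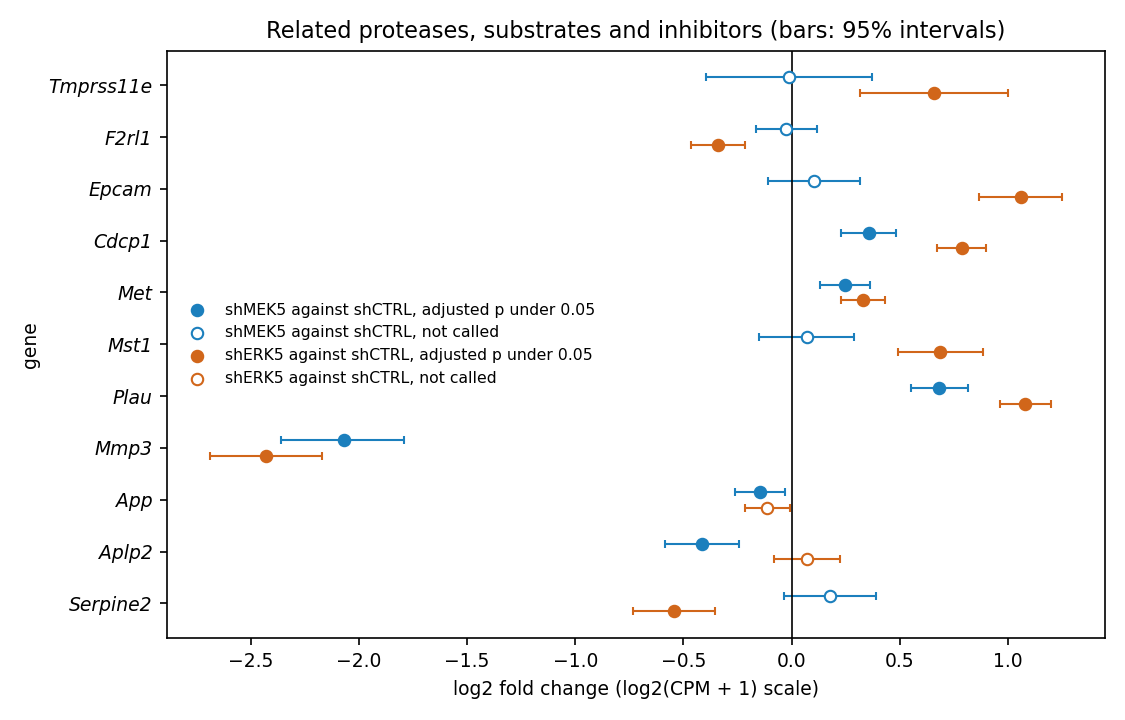
Fitted log2 fold change against shCTRL on the log2(CPM + 1) scale (x axis) of the 11 related genes with a mean of at least 5 CPM that were called in either knockdown (y axis), with 95% intervals; filled symbols passed the test and open symbols did not. Plau, Cdcp1 and Met lie above 0 in both knockdowns and Mmp3 lies below 0 in both, at -2.07 and -2.43.

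Among the other inhibitors, the Kunitz-domain genes Aplp2, App and Tfpi were tested, and all 3 fell in shMEK5, where 25.6% of all tested genes were called lower. In shERK5 0 of the 3 were called, where 63.3% of all tested genes were called in either direction. Aplp2, an amyloid precursor-like gene, was at 255.0 ± 22.3 CPM (SD, n = 3) in shCTRL and 190.6 ± 9.28 CPM (SD, n = 2) in shMEK5 (-0.42, SE 0.08, limma adjusted p = 0.00144), and was higher in shERK5 than in shMEK5 by 0.49 (SE 0.08, limma adjusted p = 0.000717). The fall of App in shMEK5 was small (-0.15, SE 0.05, limma adjusted p = 0.0376) and was lost under 10 of 19 alternatives, including edgeR's quasi-likelihood test (adjusted p = 0.0699). App had a difference of -0.11 (SE 0.05, limma adjusted p = 0.0575) in shERK5, which was called with RLE scaling (limma adjusted p = 0.0472) and without shERK5 replicate 3 (limma adjusted p = 0.0427). Between the knockdowns the App difference was 0.04 (SE 0.05, limma adjusted p = 0.618). Tfpi, tissue factor pathway inhibitor, named after its values were seen, had a mean of 1.83 ± 0.166 CPM (SD, n = 3) in shCTRL and 1.02 ± 0.0434 CPM (SD, n = 2) in shMEK5. Serpine2, a serpin gene whose product can inhibit prostasin, fell in shERK5 by 0.54 on the log2 scale (SE 0.08, limma adjusted p = 0.000368), its means being 159 ± 20.4 CPM (SD, n = 3) in shCTRL and 108.3 ± 7.29 CPM (SD, n = 3) there. In shMEK5 Serpine2 had a difference of 0.18 (SE 0.09, limma adjusted p = 0.151), which was called without shCTRL replicate 1 (0.28, limma adjusted p = 0.00708). The knockdowns differed by -0.72 (SE 0.09, limma adjusted p = 0.000299), shERK5 being the lower. The inhibitor genes Spint3 and Spint4 had 0 reads in every library.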

How the data were processed

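Total RNA of 4T1 cells was depleted of ribosomal RNA and made into stranded libraries, per the labels' protocols. The submitters' processing notes list STAR and mm10. The STAR version, annotation, counter and strand setting were not given in the sources used here. CPM were deposited by the authors, 1 file per library. Each summed to 1000000, and 100% of the values above 0 came out as whole reads (tolerance 0.01 read), so reads were recovered. Depth ranged from 41397315 to 53714288 reads, and 1 read was worth between 0.0186 and 0.0242 CPM. Reads are not independent molecules, so limits from counts cover counting error only. RefSeq (GRCm38.p6) gave 24374 of 24454 symbols by Entrez number. GENCODE transcript lengths were matched through RefSeq accessions, and overlaps and lengths over all exons through GENCODE gene names.

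Genes with at least 1 CPM in at least 2 libraries were tested (11623). Because the unit was CPM, the test was limma 3.58.1 with trend and robust moderation on log2(CPM + 1), over all 8 libraries with 1 mean per group and no covariate, and Benjamini-Hochberg adjustment over all genes tested (adjusted p under 0.05). Fold changes on this scale understate changes of low genes. On recovered reads, edgeR 4.0.16 called 5627 genes for shMEK5, 7351 for shERK5 (each against shCTRL) and 4452 between knockdowns; DESeq2 1.42.0 was a further alternative. Recovery of known changes by this fit was tested on simulated data in which far fewer genes changed than were called here. Because of that difference, no conclusion on the adjusted p-values is drawn from it. Ratios were tested by exact permutation (scipy 1.17.1). The 4 genes, the lists and the rules were chosen with earlier results of these data known. Of the list, genes were named that were called in either knockdown and had a mean of at least 5 CPM, and for each member the 3 genes nearest in profile. Levels per kilobase over all exons were an alternative chosen after seeing the data.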

Additional observations from a re-analysis of the deposited data

How the results depend on the processing

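The fit was repeated under 19 alternatives: other scaling (TMM, RLE), pseudocounts of 0.25 and 4 CPM, no filter or a filter at 5 CPM, no robust moderation, edgeR, DESeq2, only the groups compared, the replicate number as a block, and each library left out. St14 in all 3 comparisons, Prss8 in shERK5 against shCTRL and Spint1 in shMEK5 against shCTRL were called under every one. The share of higher genes among all genes called depended on the scaling. In shMEK5 against shCTRL it was 47.4% in the main fit, 51.4% with TMM and 50.9% with RLE scaling. Between the knockdowns it was 55.9% in the main fit, 50.9% with TMM and 50.8% with RLE scaling. With single libraries left out, Spint1 in shERK5 against shCTRL ranged from -0.161 to -0.114, Prss8 between the knockdowns from 0.336 to 0.378 and Spint1 between the knockdowns from 0.149 to 0.198 (log2), and each lost its call for the libraries named above. The number of genes called between the knockdowns ranged from 2864, without shMEK5 replicate 1, to 4825; leaving out 1 of 2 shMEK5 libraries assumes that the other varies like the other groups, and the cause was not tested.

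Signs turned among values that were not called. With single libraries left out, Prss8 in shMEK5 against shCTRL ranged from -0.124 to 0.0369, and Spint2 from -0.0416 to 0.396 in shMEK5 against shCTRL, from -0.0399 to 0.520 in shERK5 against shCTRL and from -0.155 to 0.308 between the knockdowns. In shMEK5 against shCTRL, Tmprss11e ranged from -0.0952 to 0.0774 (0.00758 with TMM and 0.00456 with RLE scaling), F2rl1 from -0.0547 to 0.0217 and Mst1 from -0.0905 to 0.228. App between the knockdowns ranged from -0.00316 to 0.0756. The log2 ratio of St14 to Spint2 between the knockdowns ranged from -0.0599 to 0.444, and that of Prss8 to Spint2 from -0.536 to 0.0643 in shMEK5 and from -0.280 to 0.367 in shERK5 against shCTRL. The cause of these changes was not tested.

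The replicate numbers were shared between groups, but deviations of same-numbered libraries correlated from -0.191 to 0.518, and not every pair was over 0.1, so the numbers were not taken as pairs. Same-numbered shMEK5 and shERK5 libraries correlated at 0.465 and 0.518. With 2 shMEK5 libraries, the deviations of each are those of the other with the sign changed. The crossed values of -0.518 and -0.465 therefore follow from the same-numbered ones and add nothing to them. A link by number between these groups is not excluded. With the replicate block, 5763 genes were called for shMEK5, 7462 for shERK5 and 4435 between the knockdowns, and Spint2 in shMEK5 against shCTRL turned to -0.00333; the calls of the 4 genes did not change.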
